A study of Mus musculus with 2 samples.

Results

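The genes described here encode the urea cycle and the enzymes that break down amino acids, 46 genes chosen by symbol and sorted into 10 pathways. A gene was taken from the array where the platform annotation gave a probe set (the group of short probes that reads a transcript) to that gene alone. This held for 43 of the 46 genes, out of 18193 named genes. Gls2 (liver glutaminase), Sds (serine dehydratase) and Amt (aminomethyltransferase of the glycine cleavage system) had no such set and are not analysed here.

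Liver RNA was measured on Affymetrix GeneChip mouse arrays, 1 array from a Tmprss6-deficient male (Tmprss6-/-, made by gene targeting) and 1 from a control male. Both mice were 3 months old, of strain 129Sv/C57BL6, and had fasted overnight. The control's genotype, the deleted part of the gene and whether the control was a littermate are not given in the labels. Tmprss6 encodes matriptase-2, a membrane protease of hepatocytes that restrains the iron hormone hepcidin. Each genotype was measured once, which leaves no replicate error and allows no test, so every difference below is between 2 animals.

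The liver disposes of amino acid nitrogen through the urea cycle, which starts in the mitochondrion and ends in the cytosol of hepatocytes, mainly around the portal vein. Aminotransferases move amino groups onto glutamate and aspartate, which feed the cycle, and separate pathways degrade the carbon skeletons. In a fast these skeletons supply glucose and ketone bodies, and glucagon and glucocorticoids are known to induce several of the enzymes.

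Kmo, of tryptophan breakdown, and Got1, an aminotransferase, were the genes past 1.5-fold, both higher in the Tmprss6-deficient liver. Of the 43 genes, all above the signal floor of 17.8 on both arrays, 41 lay within 1.5-fold. Past that threshold, 2 were higher in the Tmprss6-deficient liver and 0 were lower. Over all 12230 genes above the floor on at least 1 array, 18.0% were past 1.5-fold, 8.86% as higher and 9.14% as lower. Among the 12230, 1029 had a mean log2 signal of 10 or more, as did 32 of the 43. Among the 1029 the share past 1.5-fold was 8.75%, against 1 of 32 amino acid genes. Between log2 signals of 8 and 10 it was 8.18%, against 1 of 9. Counts this near to the shares of genes of like signal are no result about the pathway. The median log2 ratio of Tmprss6-deficient over control was 0.039 over the 43 genes and -0.0033 over all 12230. The median size of the log2 ratio in either direction was 0.13 over the 32 bright amino acid genes and 0.16 over the 1029 bright genes.

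The only error these data give is the spread between probe sets that read the same gene, which leaves out variation between animals. Taken over genes with both sets in the same signal range, its SD on the log2 scale was 0.34 for log2 signals from 6 to 8, 0.21 from 8 to 10 and 0.16 from 10 upward. By this measure 8 of the 43 genes (18.6%) had a log2 ratio of at least 2 SDs, 6 of them higher (Kmo, Got1, Slc25a15, Bckdhb, Aass and Gldc) and 2 lower (Tat and Otc). The same held for 12.0% of all 12230 genes. Among genes of mean log2 signal 10 or more it held for 24.4%, against 6 of 32 amino acid genes. A further 27 of the 43 lay within 1 SD. Among the 43, the SD between the 2 brightest sets of a gene, at any signal, was larger, at 0.26. By that SD fewer than 8 genes reach 2 SDs, and Slc25a15, Bckdhb, Aass and Otc do not.

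**Figure D1:**
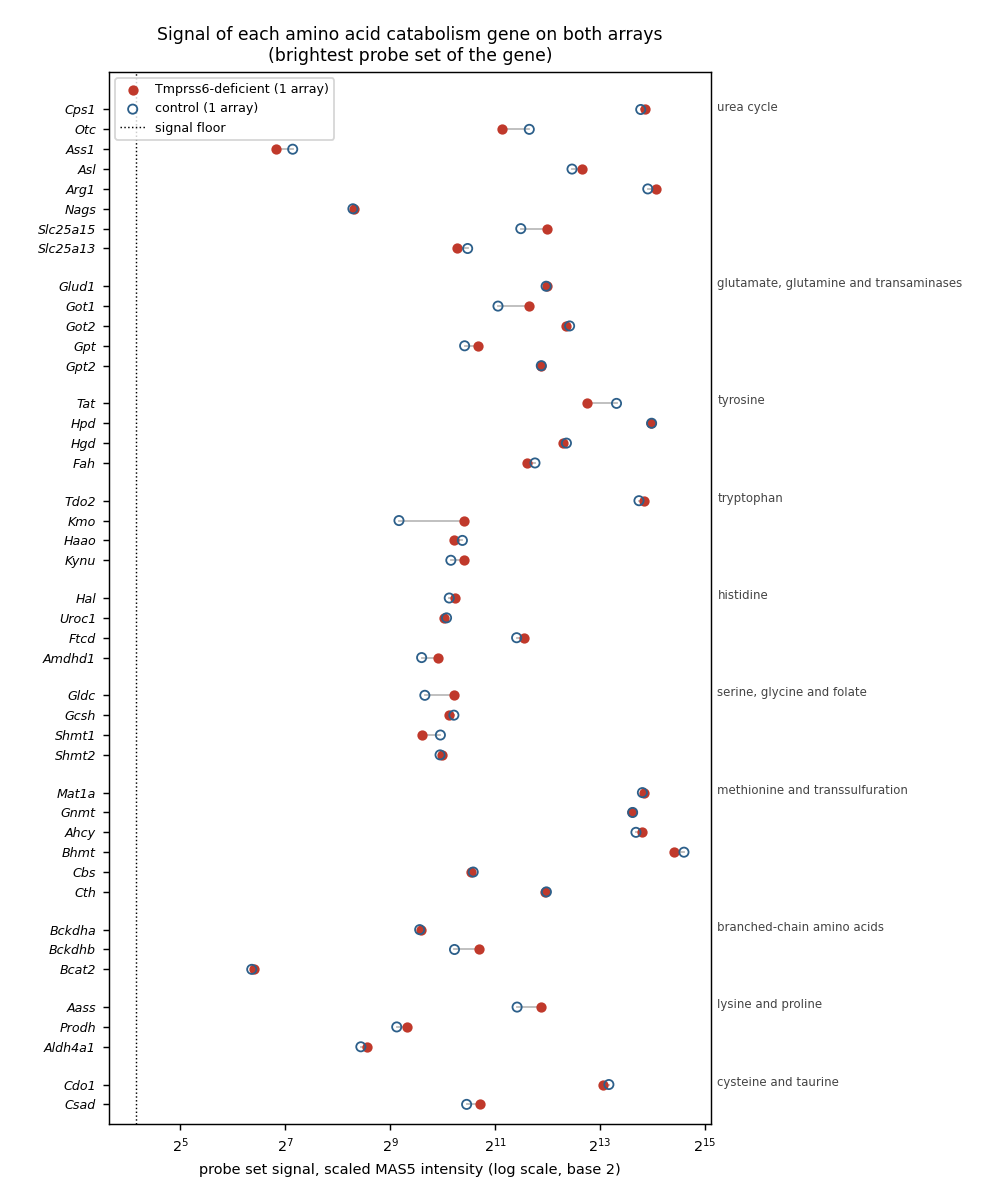
Signal of the brightest probe set of each gene, as scaled MAS5 intensity on a log axis, on the Tmprss6-deficient array (filled red) and the control array (open blue), with genes sorted by pathway and the floor of 17.8 dotted. Most pairs nearly coincide, while Kmo has the longest gap, at 1349 in the Tmprss6-deficient and 575 in the control liver; signals of different probe sets are not comparable as transcript levels.

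**Figure D2:**
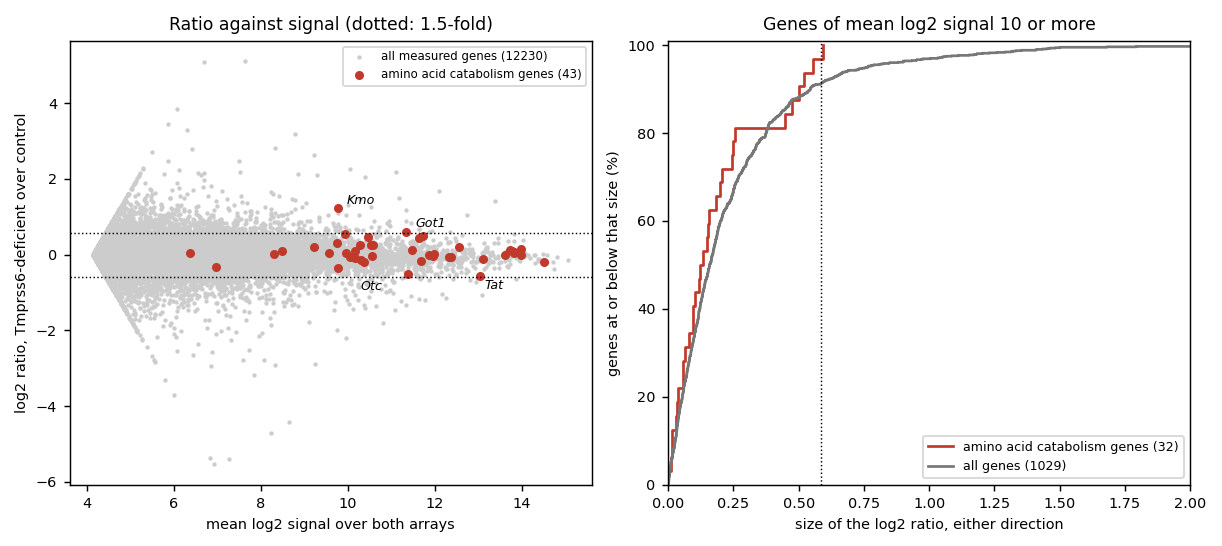
Left, log2 ratio of Tmprss6-deficient over control against the mean log2 signal for 12230 measured genes (grey) and the 43 amino acid genes (red), with 1.5-fold dotted. Right, share of genes at or below a given size of log2 ratio among genes of mean log2 signal 10 or more, with 32 amino acid genes in red and 1029 genes in grey; the red curve is complete at 0.59, the value of Got1, while 8.75% of the grey one lies past 1.5-fold.

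Promoter sequence was available for 36 of the 46 genes, as windows from 250 bases before to 50 bases after the RefSeq start on GRCm38.p6. Shown here are Kmo and Got1, the genes past 1.5-fold, and Aass, the gene with matches to both the cyclic AMP and the C/EBP letters. Each window reads 5′ to 3′ on the gene's strand, with matches in capitals. Kmo lies at chr1:175631943-175632242 on the + strand, Got1 at chr19:43524556-43524855 on the - strand and Aass at chr6:23132937-23133236 on the - strand.
Kmo: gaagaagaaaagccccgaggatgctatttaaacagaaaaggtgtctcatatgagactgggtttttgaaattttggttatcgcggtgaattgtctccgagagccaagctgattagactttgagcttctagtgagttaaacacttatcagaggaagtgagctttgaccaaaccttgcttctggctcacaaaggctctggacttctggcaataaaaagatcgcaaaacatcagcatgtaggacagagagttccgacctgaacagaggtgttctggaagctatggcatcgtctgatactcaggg
Got1: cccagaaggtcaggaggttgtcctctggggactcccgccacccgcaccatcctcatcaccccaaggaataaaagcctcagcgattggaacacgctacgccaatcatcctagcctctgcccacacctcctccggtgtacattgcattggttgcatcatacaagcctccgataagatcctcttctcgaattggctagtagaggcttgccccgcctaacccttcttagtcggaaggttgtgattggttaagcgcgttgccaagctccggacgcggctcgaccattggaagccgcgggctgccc
Aass: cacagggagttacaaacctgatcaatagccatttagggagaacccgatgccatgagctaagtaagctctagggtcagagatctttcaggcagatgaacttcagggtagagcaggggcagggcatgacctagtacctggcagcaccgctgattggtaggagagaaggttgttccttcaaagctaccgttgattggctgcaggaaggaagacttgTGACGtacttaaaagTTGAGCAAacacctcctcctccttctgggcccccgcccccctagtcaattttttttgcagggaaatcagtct
Searched on both strands were TGACG (the short form of the cyclic AMP response element), TTGCNNAA (a C/EBP motif) and CACGTG (an E-box), none of which overlaps another in these windows. The Aass window holds TGACG on the strand shown and the C/EBP letters on the other strand. No match to any of the 3 lies in the Kmo and Got1 windows. Over all windows of the 36 genes, TGACG was in 6 of 40 (15.0%), against 20.8% of 32851 promoter windows. TTGCNNAA was in 3 of 40 (7.50%), against 10.8%, and CACGTG in 4 of 40 (10%), against 7.15%. These are matches of letters and not evidence of binding.

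The 8 urea cycle genes, each read by a probe set of its own, lay within 1.5-fold, while a bright set that the annotation shares between Ass1 and Gm5424 was past it. Cps1 (carbamoyl phosphate synthetase, which fixes ammonia in the mitochondrion) read 14836 in the Tmprss6-deficient and 14025 in the control liver. Nags, which makes the activator that Cps1 requires, read 316 in the Tmprss6-deficient and 313 in the control liver. Both differences are below the spread between probe sets. Otc, which joins carbamoyl phosphate to ornithine, read 2241 in the Tmprss6-deficient and 3216 in the control liver, 1.44-fold lower. Its second set read 1820.01 in the Tmprss6-deficient and 2549 in the control liver, 1.40-fold lower, while a dim set read 54.8 in the Tmprss6-deficient and 41.0 in the control liver, 1.34-fold higher. Slc25a15, the carrier that brings ornithine into the mitochondrion for Otc, read 4069 in the Tmprss6-deficient and 2874 in the control liver, 1.42-fold higher. Its other set read 385 in the Tmprss6-deficient and 187 in the control liver, 2.06-fold higher. The carrier and the enzyme that uses its substrate thus had ratios of opposite sign on their bright sets.

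In the cytosolic arm, Asl (argininosuccinate lyase) read 6492 in the Tmprss6-deficient and 5656 in the control liver, a log2 ratio of 0.20. Arg1, the arginase that releases urea, read 17047 in the Tmprss6-deficient and 15393 in the control liver, a log2 ratio of 0.15. Slc25a13 (citrin, which exports aspartate for the cycle) read 1235 in the Tmprss6-deficient and 1424 in the control liver, a log2 ratio of -0.21. Ass1, which joins citrulline and aspartate, read 113 in the Tmprss6-deficient and 141 in the control liver on probe set 1459937_at, its only set here, a log2 ratio of -0.32. That signal is dim. The bright set 1416239_at, given to Ass1 and Gm5424 together and so used for no gene, read 10822 in the Tmprss6-deficient and 6752 in the control liver, 1.60-fold higher. The direction of Ass1 therefore cannot be given. The median log2 ratio of the 8 urea cycle genes was 0.049, and 0 of them passed 1.5-fold, with Ass1 read by its dim set.

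Among the enzymes that handle glutamate, the cytosolic aspartate aminotransferase gene Got1 was higher. It read 3209.9 in the Tmprss6-deficient and 2127 in the control liver, 1.51-fold higher on its only probe set, and 1.45-fold with the arrays scaled to the same median, which is below the threshold. Its promoter window held none of the 3 motifs. Got2, the mitochondrial form, read 5245 in the Tmprss6-deficient and 5479 in the control liver on its brightest set. Its other 2 sets above the floor pointed the opposite way, at log2 ratios of 0.38 and 0.090. Glud1 (glutamate dehydrogenase, which releases ammonia from glutamate) read 4062 in the Tmprss6-deficient and 4018 in the control liver, and its second set had a log2 ratio of 0.091.

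For alanine, Gpt (the cytosolic alanine aminotransferase) read 1626 in the Tmprss6-deficient and 1369 in the control liver, a log2 ratio of 0.25, and its dimmer set had a ratio of -0.56. Gpt2, the mitochondrial form, read 3743 in the Tmprss6-deficient and 3769 in the control liver on its brightest set, with the other 3 sets between -0.39 and 0.16 on the log2 scale. The direction of Gpt therefore differs between its probe sets, and no direction can be given for Gpt2. Over the 5 measured genes of this pathway the median log2 ratio was 0.016, and Got1 alone passed 1.5-fold.

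Tyrosine breakdown runs through 4 of the genes measured here, and their ratios were below 0 in the main setting, though by little except for the first. So were the ratios of 627 of the 1029 bright genes. The sign of Hgd turned in 4 of 10 alternative settings, with log2 ratios of 0.022 under quantile normalization, 0.021 under loess, 0.077 for the mean of all measured sets and 0.21 for the second brightest set. That of Hpd turned under loess (0.11). Tat (tyrosine aminotransferase, the first and regulated step, induced by glucocorticoids and glucagon) read 6938 in the Tmprss6-deficient and 10183 in the control liver, 1.47-fold lower. This is 3.39 times the SD between probe sets at that signal, on a single set. Hpd, the next enzyme, read 16158 in the Tmprss6-deficient and 16193 in the control liver. Hgd (homogentisate dioxygenase) read 5051 in the Tmprss6-deficient and 5254 in the control liver, and a dim second set had a log2 ratio of 0.21. Fah, the last enzyme of the pathway, read 3111 in the Tmprss6-deficient and 3467 in the control liver, a log2 ratio of -0.16. The median over the 4 genes was -0.11, and 0 of them passed 1.5-fold.

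In tryptophan breakdown the largest difference of all 43 genes was found. Kmo (kynurenine 3-monooxygenase, an enzyme of the outer mitochondrial membrane that commits kynurenine to the branch leading to NAD) read 1349 in the Tmprss6-deficient and 575 in the control liver on probe set 1418998_at. It was 2.35-fold higher, or 1.23 on the log2 scale, 5.88 times the SD between probe sets at that signal. No second set was available as a check, and its promoter window held none of the 3 motifs. It stayed between 2.25-fold and 2.38-fold higher under the 9 alternative settings that gave it a value. All of these read the same probe set on the same arrays. They are therefore no check of the probe set or of variation between animals.

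The other measured enzymes of tryptophan breakdown lay within 1.5-fold. Tdo2 (tryptophan dioxygenase, the first step) read 14645.5 in the Tmprss6-deficient and 13701 in the control liver, a log2 ratio of 0.096, and its other 2 sets had ratios of -0.26 and -0.18. Afmid (kynurenine formamidase, which makes the kynurenine that Kmo uses, from the list of further genes) read 315 in the Tmprss6-deficient and 462 in the control liver, 1.47-fold lower. Its other sets had log2 ratios of -0.22 and 0.32. Kynu (kynureninase, which acts on the product of Kmo) read 1350.4 in the Tmprss6-deficient and 1141 in the control liver, a log2 ratio of 0.24. A dim set of Kynu was above the floor in the control liver alone, at 16.5 in the Tmprss6-deficient and 30.4 in the control liver, at least 1.71-fold lower. Haao, the dioxygenase after Kynu, read 1197 in the Tmprss6-deficient and 1329 in the control liver, a log2 ratio of -0.15. The 4 listed genes of this pathway had a median log2 ratio of 0.17, and Kmo alone passed 1.5-fold.

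Kmo is also known in macrophages, so markers of blood-derived and resident immune cells are given beside it. Of 9 measured Kupffer cell and macrophage markers, 1 passed 1.5-fold as higher and 4 as lower, and their signals summed to 2111 in the Tmprss6-deficient and 2959 in the control liver. Over all 12230 genes 18.0% passed 1.5-fold in either direction, as did 8.18% of those between log2 signals of 8 and 10. Marco lay between 6 and 8 and Timd4 below 6, where no share was taken. Clec4f and Vsig4, which mark Kupffer cells, were 1.75-fold and 1.72-fold lower, C1qb was 1.89-fold lower and Marco was 1.76-fold higher. Timd4 was at least 1.59-fold lower. Of 5 measured lymphocyte and neutrophil markers, 0 were higher and 1 (Ptprc) was 1.55-fold lower, with summed signals of 224 in the Tmprss6-deficient and 277 in the control liver. Cd3e and Cd3g were below the floor on both arrays. The part of these cells in the Kmo ratio was not tested. In bulk liver, fewer cells of a type and less RNA per cell cannot be told apart.

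The 4 histidine breakdown genes lay within 1.5-fold. Hal (histidase, the first enzyme) read 1198 in the Tmprss6-deficient and 1117 in the control liver. Uroc1 (urocanase) read 1037 in the Tmprss6-deficient and 1078 in the control liver, and its dimmer set had a log2 ratio of -0.47. Amdhd1, the third enzyme, read 964 in the Tmprss6-deficient and 775 in the control liver, a log2 ratio of 0.31, with 0.11 on its second set. Ftcd, which passes the formimino group to folate, read 2987 in the Tmprss6-deficient and 2720.15 in the control liver. The median log2 ratio was 0.12 over the 4 genes, and 0 passed 1.5-fold in either direction.

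Of the serine and glycine genes, Gldc (the decarboxylase of the glycine cleavage system) lay just below the threshold. It read 1189 in the Tmprss6-deficient and 809 in the control liver, 1.47-fold higher on 1 set. Its partner Gcsh, the lipoate-carrying protein of the same system, read 1112 in the Tmprss6-deficient and 1187 in the control liver. Shmt1, the cytosolic serine hydroxymethyltransferase, read 782 in the Tmprss6-deficient and 993 in the control liver, 1.27-fold lower. Its second set was 1.65-fold lower, the third had a log2 ratio of 0.24 and the fourth -0.19. Shmt2, the mitochondrial form, read 1021 in the Tmprss6-deficient and 989 in the control liver, and all 4 of its sets pointed higher, with log2 ratios of 0.033 on the second and of 0.54 and 0.67 on 2 dim sets. With the arrays scaled to the same median the brightest set of Shmt2 turned to -0.013. The 4 measured genes had a median of -0.024.

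The methionine cycle and transsulfuration, which turn methionine into homocysteine and then cysteine, had the smallest median size of log2 ratio of the 10 pathways. Mat1a, which makes S-adenosylmethionine in the liver, read 14731 in the Tmprss6-deficient and 14338 in the control liver. Gnmt, the methyltransferase that consumes its excess, read 12469.6 in the Tmprss6-deficient and 12599.9 in the control liver. Ahcy, which releases homocysteine, read 14319.5 in the Tmprss6-deficient and 13164 in the control liver. Bhmt, which remethylates homocysteine with betaine, read 21890 in the Tmprss6-deficient and 24831 in the control liver, a log2 ratio of -0.18. Of the transsulfuration enzymes, Cbs read 1496 in the Tmprss6-deficient and 1533 in the control liver, and Cth read 3943 in the Tmprss6-deficient and 4032 in the control liver. The median log2 ratio was -0.023 and the median size 0.037, over 6 genes that all lay within 1.5-fold.

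For cysteine, Cdo1 (cysteine dioxygenase) read 8492 in the Tmprss6-deficient and 9207 in the control liver, a log2 ratio of -0.12. Csad, the decarboxylase on the way to taurine, read 1678 in the Tmprss6-deficient and 1405 in the control liver, a log2 ratio of 0.26. The 2 consecutive enzymes had ratios of opposite sign, of 1.57 SDs or less.

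Among branched-chain genes the subunits of the same complex differed unequally. Bckdhb, the beta subunit of the branched-chain keto acid dehydrogenase, read 1665 in the Tmprss6-deficient and 1197 in the control liver, 1.39-fold higher. Bckdha, the alpha subunit, read 773 in the Tmprss6-deficient and 756 in the control liver, a log2 ratio of 0.033. Bcat2, the mitochondrial aminotransferase that acts first and is known to be low in hepatocytes, read 84.5 in the Tmprss6-deficient and 82.1 in the control liver. In lysine breakdown Aass (the bifunctional enzyme of the first steps, with both the cyclic AMP and C/EBP letters in its window) read 3732 in the Tmprss6-deficient and 2737 in the control liver, 1.36-fold higher. For proline, Prodh (proline dehydrogenase) read 637 in the Tmprss6-deficient and 558 in the control liver, a log2 ratio of 0.19. Aldh4a1, the next enzyme, read 375 in the Tmprss6-deficient and 347 in the control liver, a log2 ratio of 0.11. Medians were 0.040 over the 3 branched-chain genes and 0.19 over the 3 lysine and proline genes.

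**Figure D3:**
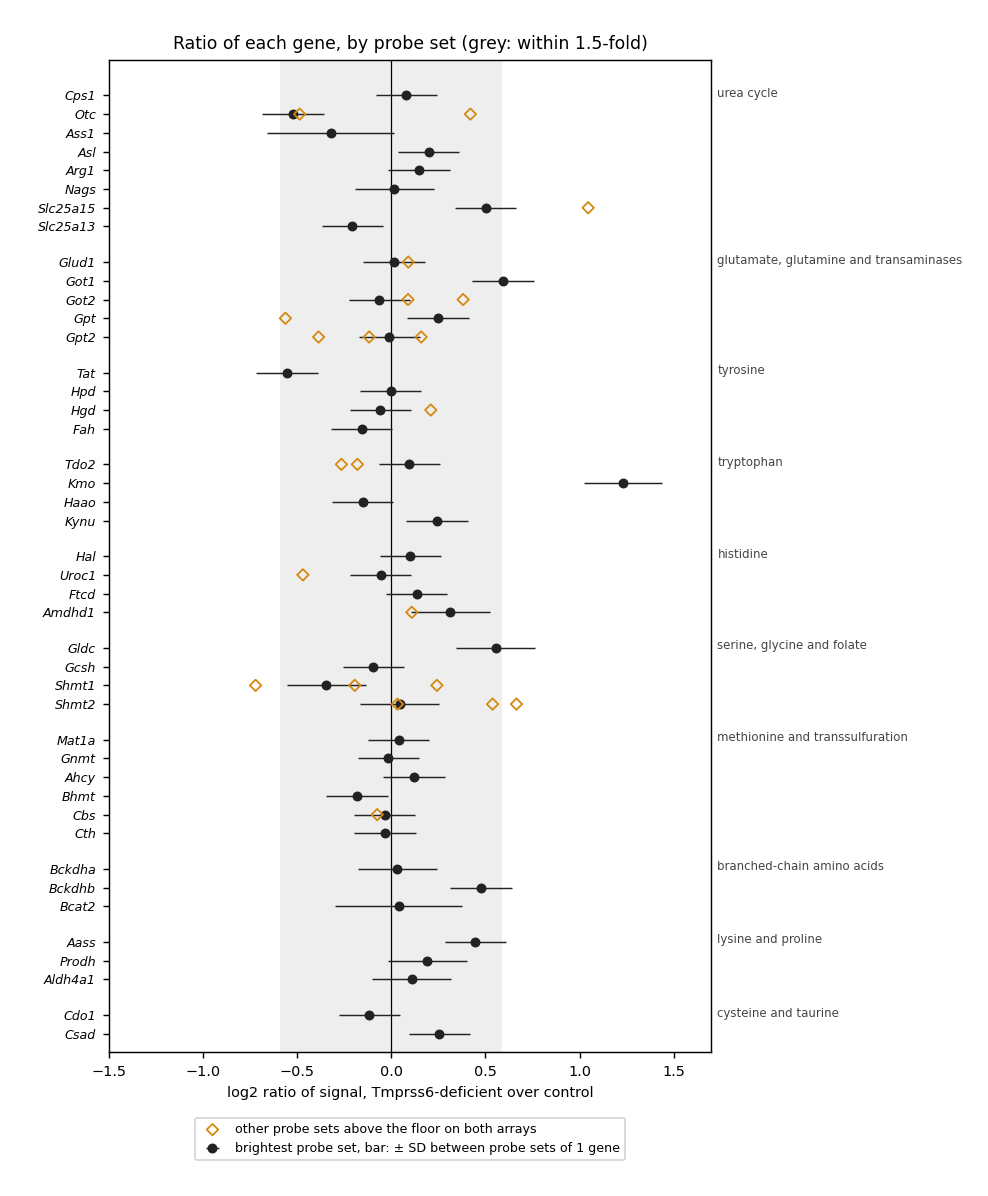
Log2 ratio of Tmprss6-deficient over control for the brightest probe set of each gene (black, with the SD between probe sets of the same gene at that signal as bar) and for its other measured sets (orange diamonds); the grey band marks 1.5-fold. Kmo at 1.23 and Got1 at 0.59 lie outside the band on their brightest sets, and dimmer sets of Slc25a15, Shmt1 and Shmt2 do as well.

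Probe sets of the same gene did not always point the same way. For 13 genes, 2 or more sets cleared the floor in both livers. Among these, the second brightest set shared the sign of the brightest in 9, and all sets shared it in 6. The SD between the 2 brightest sets of these genes was 0.26 on the log2 scale, with the 2 sets at any signal. It exceeds the SDs of 0.21 and 0.16 used above for log2 signals from 8 to 10 and from 10 upward. Ratios below 0.26 give no firm direction. A larger ratio can also turn, as for Otc, at -0.52 on its brightest set and 0.42 on a dim set. The other 30 genes, Kmo, Got1 and Tat among them, rest on 1 set.

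Genes around these pathways were mostly within 1.5-fold, as were genes at large. Past it were 18.0% of all 12230 genes, 8.18% of those between log2 signals of 8 and 10 and 8.75% of those of 10 or more. Lying within 1.5-fold is therefore no result about these lists. Of 8 measured further genes of the urea cycle and ammonia handling, 0 passed 1.5-fold and 7 had ratios below 0, with a median of -0.16. Ratios below 0 were also found in 6152 of all 12230 genes and in 627 of the 1029 bright genes, whose median was -0.049. Glul (glutamine synthetase, which traps ammonia around the central vein) read 2860.25 in the Tmprss6-deficient and 4155 in the control liver, 1.45-fold lower, and 1.26-fold lower on its second set. Oat (ornithine aminotransferase, also pericentral) read 4806 in the Tmprss6-deficient and 6818 in the control liver, 1.42-fold lower. Of 11 pericentral markers, Glul and Oat among them, 4 had ratios above 0 and 7 below. Past 1.5-fold were 2 as higher and 2 as lower. Of 12 further tyrosine, phenylalanine and tryptophan genes and 23 further branched-chain, lysine and proline genes, 0 passed 1.5-fold, with medians of -0.11 and -0.070.

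Of 29 further serine, glycine, methionine and cysteine genes, 1 passed 1.5-fold as higher and 2 as lower, with a median of -0.044. That is 10.3% past 1.5-fold, against 18.0% of all 12230 genes and 8.18% of those between log2 signals of 8 and 10. A count this near to those shares is no result about the list. Asns (asparagine synthetase, which makes an amino acid rather than degrading it) was 1.87-fold higher on its brightest set and 2.20-fold on the other. Agxt2, a mitochondrial aminotransferase, read 476 in the Tmprss6-deficient and 726 in the control liver, 1.52-fold lower. Phgdh, the first enzyme of serine synthesis, read 38.4 in the Tmprss6-deficient and 70.8 in the control liver, dim signals that put it 1.84-fold lower, while another dim set was 1.42-fold higher.

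Among 16 measured amino acid transporters, 4 passed 1.5-fold as higher and 2 as lower, together 37.5%, against 18.0% of all genes in either direction. The share was 8.18% of genes between log2 signals of 8 and 10 and 8.75% of those of 10 or more. Slc25a38 and Slc3a1 lay between 6 and 8, and Slc43a1 below 6, where no share was taken. Ratios are larger there, with a median size over all genes of 0.25 from 6 to 8 and 0.34 below 6, against 0.18 from 8 to 10. The 37.5% is therefore not set against genes of like signal alone. Slc16a10, which carries aromatic amino acids across the plasma membrane, read 471 in the Tmprss6-deficient and 221 in the control liver, 2.13-fold higher. Its 3 other sets were 1.53-fold, 1.43-fold and 2.22-fold higher. Slc25a38, the mitochondrial glycine carrier that supplies heme synthesis, read 173 in the Tmprss6-deficient and 82.9 in the control liver, 2.08-fold higher on 1 set. Slc3a1, a subunit of the cystine transporter, was 1.94-fold higher, at 333 in the Tmprss6-deficient and 172 in the control liver. Slc25a22, a mitochondrial glutamate carrier, read 2131 in the Tmprss6-deficient and 1142 in the control liver, 1.87-fold higher on 1 set.

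Slc38a2, the sodium-coupled importer of neutral amino acids known to respond to amino acid supply, was lower. It read 1073 in the Tmprss6-deficient and 1878 in the control liver, 1.75-fold lower, and 2.26-fold lower on its second set. Another set, above the floor in the control liver alone, was at least 1.51-fold lower. Slc43a1, a branched-chain amino acid transporter, was at least 1.58-fold lower at a signal close to the floor. The median log2 ratio of the transporters was 0.090.

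**Figure D4:**
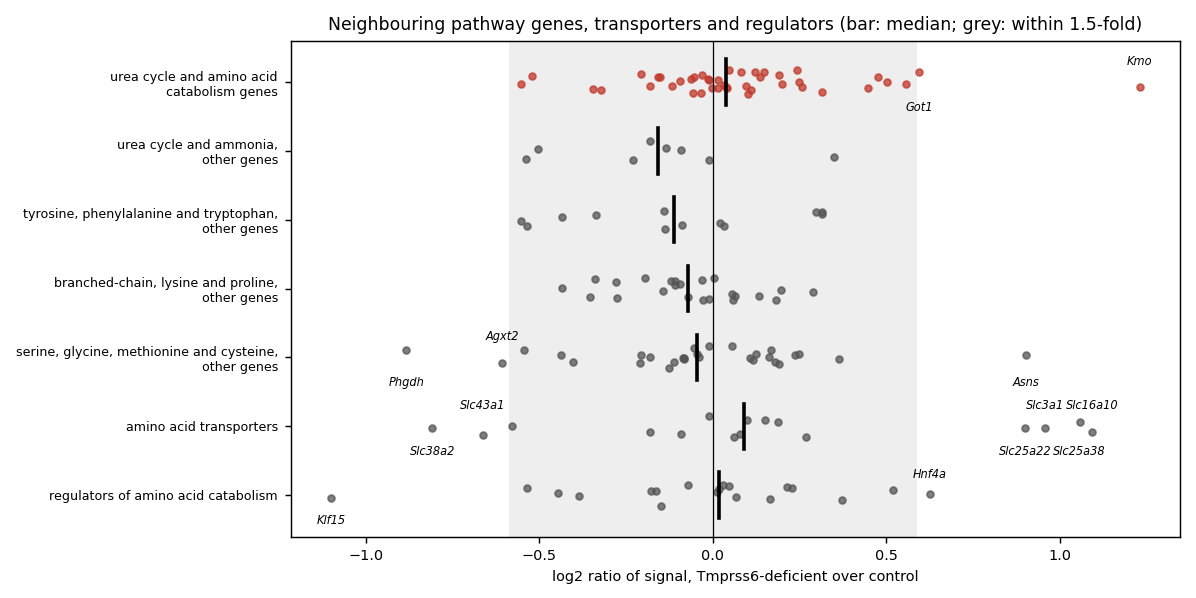
Log2 ratio of Tmprss6-deficient over control for the 43 amino acid catabolism genes (red) and for measured genes of 6 further lists (grey points), with the median of each list as a black bar and 1.5-fold as a grey band; genes past 1.5-fold are named. The lists of other enzymes have medians between -0.16 and -0.044, and the transporters range from -0.81 to 1.09.

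Of 19 regulators of amino acid catabolism, 1 passed 1.5-fold as higher and 1 as lower. That is 10.5%, against 18.0% of all 12230 genes and 8.18% of those between log2 signals of 8 and 10. A count this near to those shares is no result about the regulators. Klf15, a transcription factor that drives amino acid breakdown in the fasted liver, read 673 in the Tmprss6-deficient and 1443 in the control liver, 2.14-fold lower on 1 set. Hnf4a, a transcription factor of hepatocyte identity that acts on many liver enzymes, read 4853 in the Tmprss6-deficient and 3145 in the control liver, 1.54-fold higher. Its 3 other sets were 2.26-fold, 1.93-fold and 2.64-fold higher. Nr3c1 (the glucocorticoid receptor) read 341 in the Tmprss6-deficient and 338 in the control liver, Gcgr (the glucagon receptor) read 1131 in the Tmprss6-deficient and 1008 in the control liver, and Cebpb read 2277 in the Tmprss6-deficient and 2229 in the control liver. The 17 regulators within 1.5-fold ranged from Ppara (the fatty acid receptor of the fasted liver), at 1560 in the Tmprss6-deficient and 2258 in the control liver, a log2 ratio of -0.53 with all 3 sets lower, to Nr1h4 (the bile acid receptor), at 820 in the Tmprss6-deficient and 572 in the control liver, a ratio of 0.52. Foxo3 and Foxo1, transcription factors restrained by insulin, had log2 ratios of -0.44 and -0.38. The last 7 were chosen after their values were seen. Whether the regulators have a part in any of the ratios above was not tested.

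The targeted gene and the tissue label were checked on the same arrays. Tmprss6 read 88.2 in the Tmprss6-deficient and 1867 in the control liver. Whether its probes lie in the deleted part is not given in the labels. All 7 hepatocyte markers with a set lay within 1.5-fold, with Alb at 27870.5 in the Tmprss6-deficient and 29324 in the control liver and Ttr at 24420.4 in the Tmprss6-deficient and 24503 in the control liver. 

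Markers of zones and of other cell types were read in the same way. Past 1.5-fold in either direction were 18.0% of all 12230 genes and 8.75% of genes of mean log2 signal 10 or more. Axin2, Tbx3, Lyve1, Oit3 and Kdr lay between 6 and 8, where no share was taken. Of 11 pericentral markers 2 were higher (Axin2 and Tbx3) and 2 lower (Cyp1a2 and Lect2) past 1.5-fold. The 11 signals summed to 37153 in the Tmprss6-deficient and 42560 in the control liver. Cyp2e1, at 23093 in the Tmprss6-deficient and 22924 in the control liver, is the largest part of these sums. Of 8 measured periportal markers 1 was lower (Cyp2f2), with sums of 56416 in the Tmprss6-deficient and 64697 in the control liver, of which Alb is the largest part. Of 10 endothelial markers 2 were higher and 2 lower. Lyve1 was 4.72-fold higher, at 152 in the Tmprss6-deficient and 32.3 in the control liver, and 2.54-fold higher on its second set. Oit3 was 1.57-fold higher, while Clec4g was 1.98-fold and Kdr 1.55-fold lower. The 10 signals had sums of 1734 in the Tmprss6-deficient and 1789 in the control liver. Of 8 stellate cell and fibroblast markers 0 passed 1.5-fold, with sums of 3193 in the Tmprss6-deficient and 2879 in the control liver. Of 4 measured bile duct markers, all below the floor in the Tmprss6-deficient liver, Krt19 was at least 2.76-fold and Cldn7 at least 1.63-fold lower. Their summed signal in the control liver was 118. Of 3 measured erythroid markers Alas2 was 2.55-fold and Klf1 at least 3.23-fold lower. The third, Slc4a1, was at least 1.05-fold higher, at 18.7 in the Tmprss6-deficient and 7.19 in the control liver, where it was below the floor. The 3 signals had sums of 262 in the Tmprss6-deficient and 657 in the control liver. Alas2, at 232 in the Tmprss6-deficient and 593 in the control liver, is the largest part of these sums. The part of these zones and cell types in the differences above was not tested.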

How the data were processed

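The authors deposited intensity signals on a linear scale. MAS5 made them, per the submitters' processing notes, in a version and with settings not given in the sources used here. MAS5 summarises each array alone, and signals near background are noisy. The arrays held 45101 probe sets, 64 of them controls, and nearly the same mean (98.7 in the Tmprss6-deficient and 98.9 in the control array) with the lowest and highest 2% left out.

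That trimmed mean was made equal by scaling. Signals under 17.8, the median of all non-control sets, were raised to this floor before taking log2. The platform annotation gave 34958 sets 1 gene symbol, 932 several (used for no gene) and left 9211 unlisted. A gene is read by its set of highest mean log2 signal. A ratio against the floor is written "at least". Genes past 1.5-fold are counted, with no test, since each group has 1 array. That number limits the precision. The spread between probe sets is the SD, over genes, of the gap separating the log2 ratios of their 2 brightest sets, over the square root of 2. The calculation was tested on simulated data and run in Python 3.11.15 with NumPy 2.4.6 and pandas 2.3.3.

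All 46 genes are accounted for. From each further list, the genes past 1.5-fold (at most 4 by size) are named, with Alb, Ttr and Tmprss6. Glul, Oat, Afmid, Nr3c1, Gcgr, Cebpb, Ppara, Nr1h4, Foxo3, Foxo1, Cd3e, Cd3g, Cyp2e1, Slc4a1, Slc38a2 and Slc43a1 were named after their values were seen. So were the marker genes beyond 4 in a list. The genes and lists were chosen with earlier results of these data known. The 10 alternatives concern scaling, floor and probe set.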

Additional observations from a re-analysis of the deposited data

Results flagged for a closer look

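Probe set 1416239_at was used for no gene, because the platform annotation gives it to Gm5424 and Ass1 together, and it is listed here because it carries a signal outside the main measurement. It read 10822 in the Tmprss6-deficient and 6752 in the control liver, 1.60-fold higher, or 0.68 on the log2 scale. That is past 1.5-fold and over 4 times the spread of 0.16 between probe sets at that signal. The set read for Ass1 alone, 1459937_at, read 113 in the Tmprss6-deficient and 141 in the control liver and pointed the opposite way. Which of the 2 annotated genes the brighter set reports was not tested.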

How the results depend on the processing

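The 10 alternatives gave 395 further values for single genes. Of these, 376 moved by less than the SD between probe sets at that signal and 19 moved by more, all 19 with another choice of probe set. Many of the 376 had no room to move. Both other percentile floors left every gene at its main value, and the 30 genes with 1 measured set keep it under the mean of sets. The 19 values came from 10 genes, while 13 have a second measured set. Kmo was past 1.5-fold in all 9 alternatives that gave it a value, each of which read its only probe set. Got1 was past it in 8 of 9, with a log2 ratio of 0.54 when the arrays were scaled to the same median. That scaling left 1 gene higher and put 1 gene (Tat, at -0.61) lower by 1.5-fold or more. The second brightest probe set, which only 13 genes have, gave 1 higher (Slc25a15) and 1 lower (Shmt1). The mean of all measured sets gave 3 higher, with Slc25a15 at 0.77. The median over all measured genes of the pathways ranged from -0.074 to 0.090, and those of single pathways from -0.17 to 0.24. Otc changed sign with plain probe sets (0.42), which leave 1 dim set. No paired analysis was possible because each group holds 1 array. Variation between animals was not measured.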
